A study of Caenorhabditis elegans with 8 samples.

Results

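The astacin family of Caenorhabditis elegans, whose genes carry the symbol nas (nematode astacin), was followed in whole wild-type hermaphrodites of strain N2 kept with arsenite or with water. Members were all identifiers of the count table whose WormBase symbol is nas followed by a number. This gave 38 identifiers of 46748, with 37 symbols between them, 37 annotated as protein coding and 1, nas-40, as a pseudogene. Membership rests on the symbol alone and used no expression value, although the family was chosen with earlier results of these data known. The 8 libraries fall into 4 groups of 2, namely arsenite at 5 days, water at 5 days, arsenite at 1 day and water at 1 day. The days are given as the age of the worms, and the length of exposure is not stated. Nothing states that paired libraries grew as independent cultures, and the p-values therefore reflect library-to-library spread, which may be technical. A dose of 100 nM stands on the labels of the arsenite and the water libraries alike and was not used.

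Astacins are secreted or membrane-bound zinc metalloproteases, made as inactive proenzymes with a propeptide that blocks the active site. In the worm they are known from the shedding of the old cuticle at each moult, the maturation of cuticle collagens, the shaping of the pharyngeal grinder and the release of the embryo from its eggshell. Members differ in what follows the protease domain: ShK toxin-like domains in nas-6 to nas-15, EGF-like and CUB domains in nas-16 to nas-30, thrombospondin repeats in addition in nas-33 to nas-38, and a string of CUB and EGF-like domains in nas-39, the counterpart of the vertebrate enzymes tolloid and BMP1. The genes hch-1 (hatching), dpy-31 (collagen C-terminal processing) and toh-1 belong to the same family under other names and were not members.

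The libraries held 21598326 to 27317490 counts each, and replicate libraries differed by more than sampling noise (chi-square per degree of freedom of 3.80 to 7.62). The 5-day libraries are numbered 23 to 26 and the 1-day libraries 31 to 34, and an effect of library batch cannot be told apart from age. At 5 days, libraries 23 (water) and 24 (arsenite) stood apart from 25 (water) and 26 (arsenite). All 14449 genes that passed a filter on low counts were tested together, and a gene was called at an adjusted p under 0.05 (edgeR quasi-likelihood test, Benjamini-Hochberg adjustment over all genes tested).

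The family was a minor part of the message pool, and most of it was 2 genes. Members took 5228 and 4186 counts in arsenite at 5 days, 5340 and 4557 in water at 5 days, 4808 and 4763 in arsenite at 1 day and 4132 and 4776 in water at 1 day. The summed level, in CPM (counts scaled to library size by the TMM method), was 201 ± 17.9 in arsenite at 5 days and 209 ± 19.2 in water at 5 days (SD, n = 2). At 1 day it was 183 ± 6.29 in arsenite and 177 ± 2.69 in water (SD, n = 2). nas-11 and nas-20 together supplied 55.2% to 67% of the family's counts in the 5-day libraries and 52.5% to 53.7% in the 1-day libraries. The 95% Wilson interval was 65.7% to 68.3% for the highest share, in library 23 of water. It was 53.8% to 56.7% for the lowest at 5 days, in library 25 of water. Without nas-11 and nas-20 the sum was 75.1 ± 6.29 CPM in arsenite and 80.5 ± 9.93 in water at 5 days (SD, n = 2). At 1 day it was 86.9 ± 2.73 in arsenite and 82.7 ± 0.099 in water (SD, n = 2), so the mean of the rest was not higher at 5 days.

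Per kilobase of exon, which allows genes to be compared, nas-20 led at 5 days, with a mean level of 46.2 CPM per kilobase in arsenite and 49.8 in water, and nas-11 followed with 39.8 in arsenite and 38.8 in water. At 1 day nas-11 led with 34.1 CPM per kilobase in arsenite and 32.6 in water, ahead of nas-20 with 29.9 in arsenite and 29.98 in water. The libraries of nas-20 and nas-11 overlapped in both treatments at 5 days and in neither treatment at 1 day. The moulting protease nas-37, nas-9 and nas-3 came next at 1 day, with 9.46, 8.72 and 7.53 CPM per kilobase in arsenite and 9.10, 8.17 and 6.32 in water. nas-5 held rank 5 in both treatments at 5 days, against rank 11 in arsenite and rank 10 in water at 1 day, with 5-day levels of 4.03 CPM per kilobase in arsenite and 4.35 in water. The lowest tested members were nas-29 at 5 days, with 0.271 CPM per kilobase in arsenite and 0.190 in water, and nas-10 at 1 day, with 0.0429 in arsenite and 0.0120 in water. Of the 28 pairs of neighbours in this order, the libraries of 21 overlapped in arsenite at 5 days and 18 in water at 5 days. At 1 day those of 19 overlapped in arsenite and 13 in water. Except in water at 1 day, most single ranks therefore do not stand out from the spread.

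**Figure D1:**
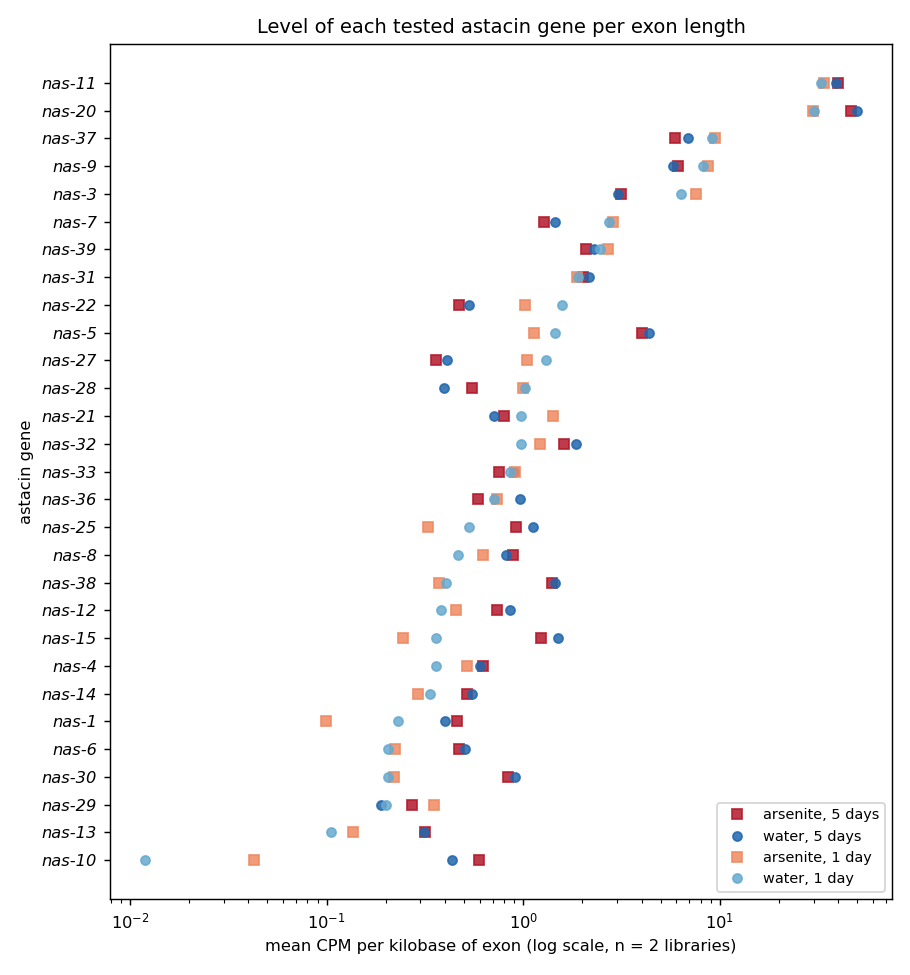
Mean level of each of the 29 tested astacin genes in CPM per kilobase of exon, on a log axis, with 1 point for each of the 4 groups (2 libraries each) and genes ordered by their level in water at 1 day. nas-11 and nas-20 lie between 29.9 and 49.8 in every group, and nas-10 has the widest gap between ages.

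The filter kept 29 members and left 9 untested. The 9 are both identifiers named nas-2, nas-16, nas-17, nas-18, nas-19, nas-23, nas-24 and nas-40, with no more than 12 counts in any library. The 2 identifiers named nas-2 had 0 counts in all 8 libraries, which allows up to 0.112 to 0.135 CPM (3 counts per library). They lie on chromosome V (WBcel235) from 2466762 to 2468504 and from 2358801 to 2360543, and both span 1743 bases with 3 exons at the same offsets. How reads that map to 2 places were counted is not given in the sources used here, so a count of 0 at these copies need not mean that no message was present. nas-16, nas-18, nas-17 and nas-19 stand side by side on chromosome V between 11392320 and 11402710 and were all near the floor, with at most 4 counts in a library. Of the tested members, 4 (nas-1, nas-6, nas-10 and nas-13) reached the filter's level of 0.415 CPM in no 1-day library and entered only through their 5-day level.

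Age was the comparison in which astacin genes moved. In water, 12 of the 29 tested members rose at 5 days relative to 1 day and 7 fell, while 10 did not pass. Among all 14449 genes tested, 30.1% were called higher and 30% lower, and the share of members called in either direction, 65.5%, lies near the 60.1% of all genes. Members had a median log2 fold change of 0.70, against 0.01 over all genes, and a median absolute log2 fold change of 0.91, against 0.45. Their median level was 1.60 CPM, against 11.2 CPM over all genes tested. Since 4 members entered the test only through their 5-day level, among them 3 of the 12 that were called higher (nas-6, nas-10 and nas-13), these counts and medians are a description. In whole worms, fewer cells of a type and less RNA per cell cannot be told apart.

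**Figure D2:**
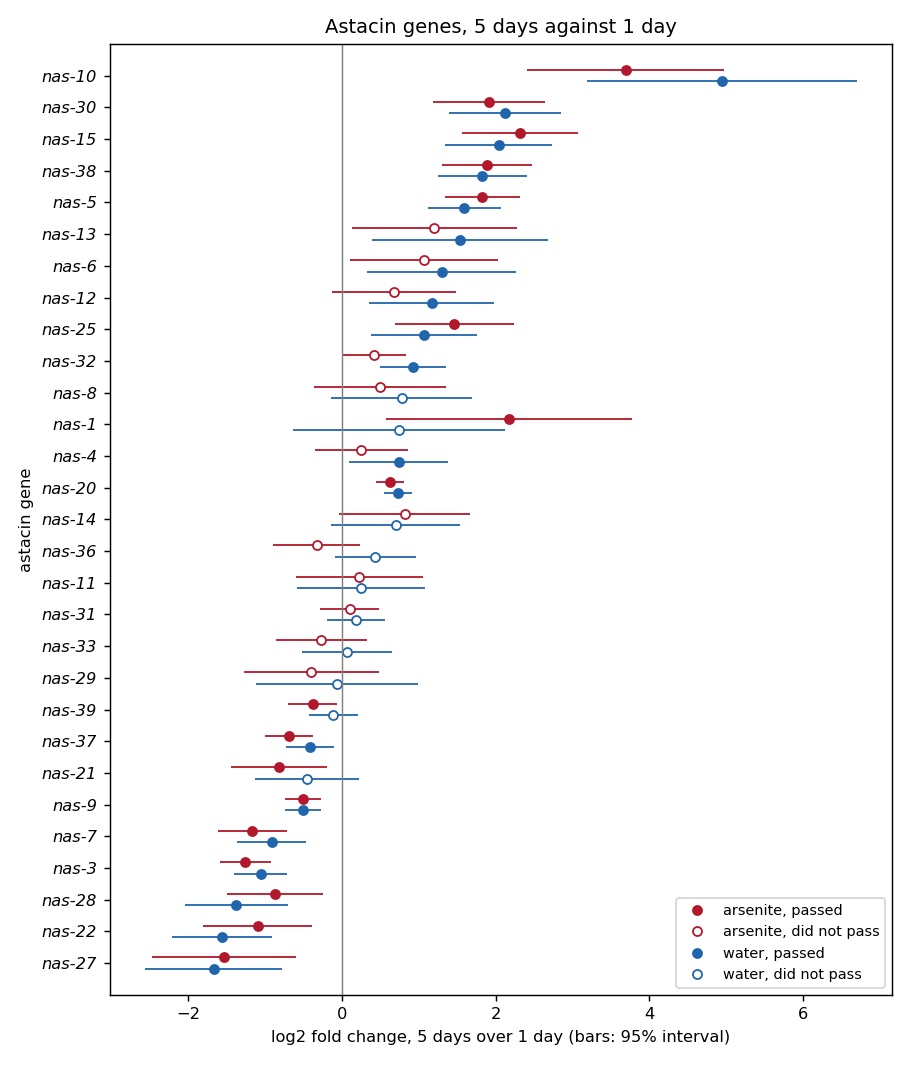
Log2 fold change at 5 days over 1 day for the 29 tested astacin genes, in arsenite (upper point of each pair) and in water (lower point), ordered by the value in water, with 95% intervals. Filled points passed the edgeR test. In water 12 genes lie filled to the right of 0 and 7 to the left.

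The largest rise was in nas-10, a member with ShK-type domains on chromosome X from 10960914 to 10963503. It had 25 and 24 counts in arsenite and 13 and 23 counts in water at 5 days, against 1 and 3 counts in arsenite and 1 and 0 counts in water at 1 day. The ages did not overlap in either treatment, and the gene was close to undetected at 1 day. The ratio of 5 days to 1 day was 38.4 in water (95% counting interval 6.46 to 1557) and 13.7 in arsenite (5.03 to 52.4). Because nas-10 entered the test only through its 5-day level, its age difference is given as a description, although edgeR called it in both treatments. The fitted log2 fold change in water, 4.94, rests on a single count at 1 day and became 7.24 without replicate 1 and 4.01 without replicate 2 of water at 1 day, and the 3.69 in arsenite became 4.58 without replicate 2 of arsenite at 1 day.

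Next in size in water were nas-30, nas-15, nas-38 and nas-5, all of which were called higher in arsenite too. nas-30, with EGF-like and CUB domains, lies on chromosome I from 938483 to 947710. Its level was 1.92 and 3.02 CPM in arsenite and 2.33 and 3.05 CPM in water at 5 days, against 0.429 and 0.863 CPM in arsenite and 0.423 and 0.785 CPM in water at 1 day. Every 5-day library was above every 1-day library, and the log2 fold change was 2.12 (SE 0.35, adjusted p = 2.34e-05) in water and 1.91 (SE 0.35, adjusted p = 7.67e-05) in arsenite, and the value in arsenite became 2.50 without replicate 2 of arsenite at 1 day. nas-15, of the ShK group on chromosome X from 777721 to 780533, stood at 1.96 and 3.06 CPM in arsenite and 2.17 and 3.90 CPM in water at 5 days. At 1 day it stood at 0.429 and 0.563 CPM in arsenite and 0.677 and 0.785 CPM in water. It rose by 2.04 (SE 0.33, adjusted p = 1.92e-05) in water and 2.32 (SE 0.37, adjusted p = 1.22e-05) in arsenite on the log2 scale.

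nas-38, a thrombospondin-repeat member on chromosome X from 558157 to 563708, is known from the sleep-like quiescence of the moult. It reached 2.49 and 3.96 CPM in arsenite and 3.001 and 3.65 CPM in water at 5 days, against 0.897 and 0.826 CPM in arsenite and 0.930 and 0.934 CPM in water at 1 day. Both treatments gave a rise of similar size, with a log2 fold change of 1.83 (SE 0.28, adjusted p = 6.11e-06) in water and 1.89 (SE 0.28, adjusted p = 4.49e-06) in arsenite. nas-5, on chromosome I from 9886189 to 9888224, stood at 5.07 and 4.32 CPM in arsenite and 5.59 and 4.55 CPM in water at 5 days. Its 1-day level was 1.17 and 1.46 CPM in arsenite and 2.03 and 1.35 CPM in water. It rose by 1.60 (SE 0.23, adjusted p = 2.28e-06) in water and 1.83 (SE 0.24, adjusted p = 5.67e-07) in arsenite on the log2 scale.

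nas-13, the sixth by fold in water, lies on chromosome X from 15425099 to 15428253 and had 12 and 13 counts in water at 5 days, against 4 and 5 at 1 day. The ratio was 2.96 (95% counting interval 1.34 to 7.21), and the fitted log2 fold change was 1.54 (SE 0.55). This member too entered the test only through its 5-day level, so that its call in water (adjusted p = 0.0198) is a description. In arsenite it had 13 and 12 counts at 5 days, against 6 and 6 at 1 day, a log2 fold change of 1.20 that did not pass (adjusted p = 0.0501), though it did with limma voom (0.0439) and in a fit to the 2 arsenite groups alone (0.0445).

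The best-measured rise was smaller. It was in nas-20, the member with the highest mean level per length at 5 days. nas-20 stood at 57.1 and 53.4 CPM in arsenite and 65.5 and 53.5 CPM in water at 5 days. At 1 day it stood at 37.2 and 34.2 CPM in arsenite and 36.5 and 35.1 CPM in water. The ages did not overlap, and the log2 fold change was 0.73 (SE 0.09, adjusted p = 2.88e-07) in water and 0.63 (SE 0.09, adjusted p = 2.40e-06) in arsenite. nas-32 rose in water to 3.54 and 4.03 CPM, against 2.03 and 1.94 CPM at 1 day (log2 fold change 0.93, adjusted p = 0.000514). In arsenite it stood at 3.23 and 3.38 CPM at 5 days and 2.46 and 2.48 CPM at 1 day, which did not pass (log2 fold change 0.42, adjusted p = 0.0800).

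The other rises in water were in nas-6 (log2 fold change 1.30), nas-12 (1.17), nas-25 (1.07) and nas-4 (0.74). These calls, with that of nas-13, were lost when single libraries were left out, which also lowers the power of the test. Over the 16 alternatives the log2 fold change ran from 1.06 to 1.51 for nas-6 and from 0.91 to 1.39 for nas-12. It ran from 0.89 to 1.22 for nas-25, from 0.67 to 0.80 for nas-4 and from 1.46 to 1.62 for nas-13. nas-6 lost its call without replicate 2 of water at 5 days (adjusted p = 0.144) or without replicate 1 (0.0507) or 2 (0.129) of water at 1 day. nas-12 lost it without replicate 1 of water at 5 days (0.132) or replicate 2 of water at 1 day (0.0839), nas-25 without replicate 1 of water at 5 days (0.0751) or at 1 day (0.0515), and nas-13 without any 1 of the 4 water libraries (0.0520 to 0.0889). nas-4, at an adjusted p of 0.0451 with all libraries, lost it without any 1 of the 4 water libraries (0.0833 to 0.152) or either arsenite library at 1 day (0.0529 and 0.0531). Its exons also share 437 bases with C05D11.5 on the same strand, so that its reads may be split between these genes. DESeq2 called 7 of the 12 rises. nas-25 was called higher in arsenite too (log2 fold change 1.47, SE 0.37, adjusted p = 0.00180), with 1.02 and 1.44 CPM at 5 days, against 0.468 and 0.413 CPM at 1 day.

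**Figure D3:**
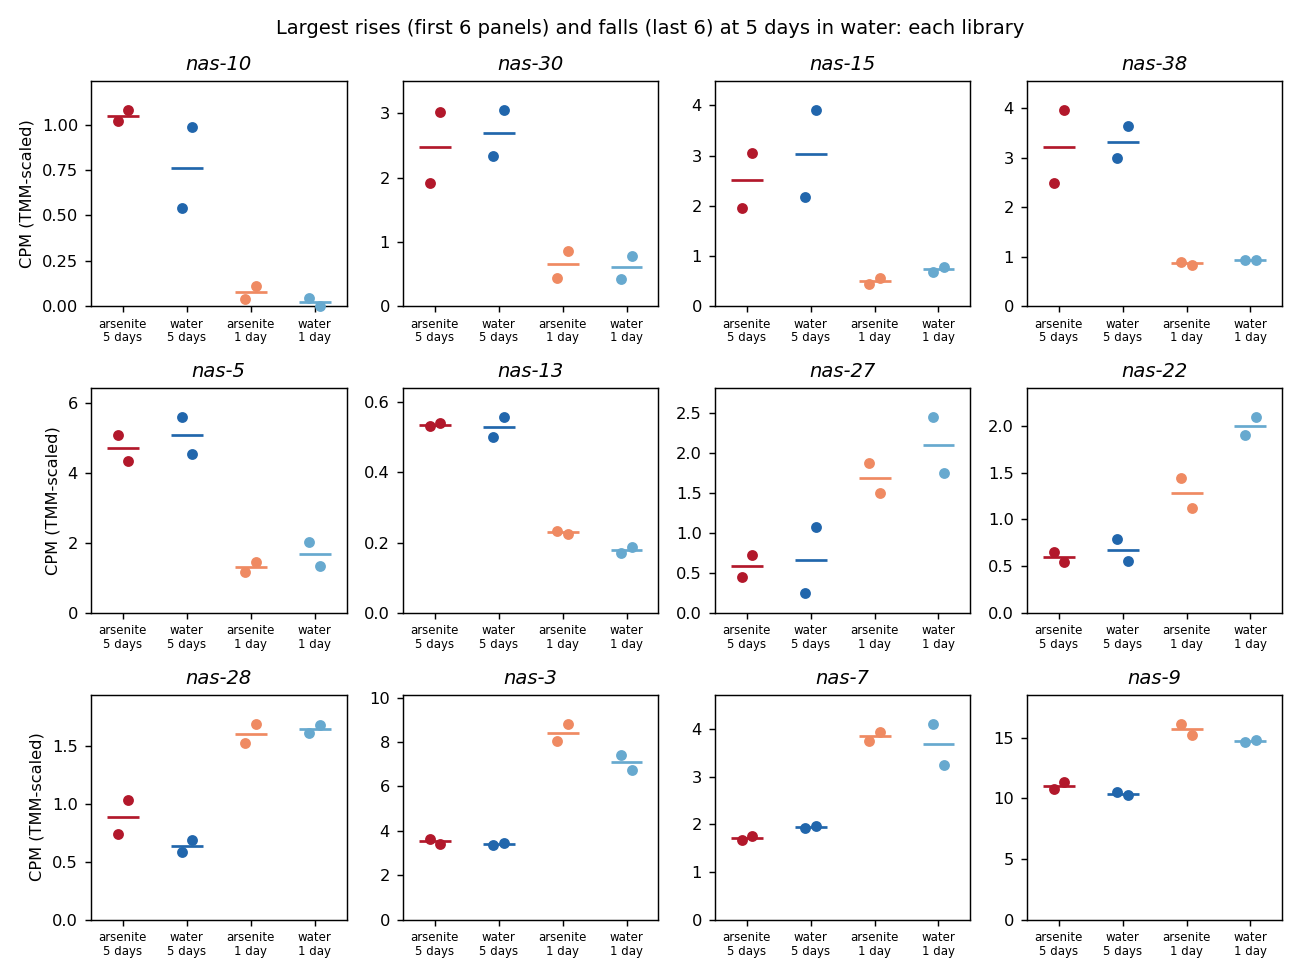
CPM in each of the 2 libraries of every group (points) and group means (lines) for the astacin genes with the 6 largest called rises and the 6 largest called falls at 5 days in water, each on its own linear axis from 0. In all 12 panels the water libraries of 5 days and of 1 day lie apart.

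The genes that fell included the pharyngeal protease nas-7 and the moulting protease nas-37. The largest fall in water was in nas-27, on chromosome II from 1175925 to 1179323, which stood at 0.450 and 0.720 CPM in arsenite and 0.2501 and 1.07 CPM in water at 5 days. At 1 day it stood at 1.87 and 1.501 CPM in arsenite and 2.45 and 1.76 CPM in water. It fell by 1.67 (SE 0.42, adjusted p = 0.00272) in water and by 1.53 (SE 0.44, adjusted p = 0.00707) in arsenite on the log2 scale. The size rests on which 5-day library is used: the value in water was -0.96 without replicate 1 and -3.04 without replicate 2 of water at 5 days. Both of these passed (adjusted p = 0.0329 and 1.51e-05), and no alternative gave an adjusted p below 4.48e-06 or above 0.0339. In arsenite the call was lost without replicate 1 of arsenite at 5 days (0.0720) or at 1 day (0.0597).

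nas-28, on chromosome III from 6180962 to 6183218, stood at 0.736 and 1.04 CPM in arsenite and 0.584 and 0.686 CPM in water at 5 days, against 1.52 and 1.69 CPM in arsenite and 1.61 and 1.68 CPM in water at 1 day. It fell by 1.37 (SE 0.32, adjusted p = 0.000845) in water on the log2 scale. The fall in arsenite, 0.86 (SE 0.30, adjusted p = 0.0175), lost its call without replicate 1 of arsenite at 5 days (0.146) or replicate 2 at 1 day (0.0895). nas-3, on chromosome V from 9478163 to 9479601, was among the most abundant members at 1 day, with 8.04 and 8.82 CPM in arsenite and 7.40 and 6.76 CPM in water. At 5 days it stood at 3.64 and 3.42 CPM in arsenite and 3.38 and 3.43 CPM in water. Replicates lay close together at both ages, and the log2 fold change was -1.05 (SE 0.16, adjusted p = 8.14e-06) in water and -1.25 (SE 0.16, adjusted p = 5.11e-07) in arsenite. nas-9, on chromosome V from 4836027 to 4840013, fell less, to 10.8 and 11.3 CPM in arsenite and 10.6 and 10.3 CPM in water at 5 days, against 16.2 and 15.3 CPM in arsenite and 14.6 and 14.8 CPM in water at 1 day. Its log2 fold change was -0.50 (SE 0.12, adjusted p = 0.000657) in water and -0.51 (SE 0.11, adjusted p = 0.000552) in arsenite.

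In the pharynx, nas-6 and nas-7 are known to act together on the grinder, the cuticular plates that break up bacteria. The call of nas-7 held in both treatments, and that of nas-6 did not. nas-7, on chromosome II from 7400545 to 7402725, stood at 1.68 and 1.76 CPM in arsenite and 1.92 and 1.97 CPM in water at 5 days, against 3.75 and 3.94 CPM in arsenite and 4.10 and 3.25 CPM in water at 1 day. It fell by 0.91 (SE 0.22, adjusted p = 0.000878) in water and by 1.16 (SE 0.22, adjusted p = 7.90e-05) in arsenite on the log2 scale. nas-6, on chromosome IV from 17486842 to 17490779, was far rarer, with 15 and 17 counts in arsenite and 15 and 20 counts in water at 5 days, against 7 and 10 counts in arsenite and 8 and 7 counts in water at 1 day. Its log2 fold change was 1.30 (SE 0.47, adjusted p = 0.0203) in water and 1.07 (SE 0.46, adjusted p = 0.0515) in arsenite, the second not passing, though it did in a fit to the 2 arsenite groups alone (0.0472). nas-6 entered the test only through its 5-day level, its call in water was lost without single libraries as given above, and the difference between the genes' changes was not tested. Markers of pharyngeal muscle (myo-1, myo-2, tnt-4, tni-4 and ceh-22) summed to 223 to 276 CPM in arsenite and 231 to 316 CPM in water at 5 days, against 452 to 464 CPM in arsenite and 458 to 481 CPM in water at 1 day. In water 3 of these 5 fell and none rose, where 30.1% of all genes tested were called higher and 30% lower. The part of these markers in the fall of nas-7 was not tested.

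The moulting proteases nas-36 and nas-37, whose loss leaves worms trapped in old cuticle, are thrombospondin-repeat members. nas-37, on chromosome X from 9944844 to 9949063, stood at 14.9 and 15.04 CPM in arsenite and 14.1 and 20.9 CPM in water at 5 days. At 1 day it stood at 25.6 and 22.5 CPM in arsenite and 22.4 and 23.9 CPM in water. It fell by 0.68 (SE 0.15, adjusted p = 0.00105) in arsenite and by 0.41 (SE 0.14, adjusted p = 0.0249) in water on the log2 scale. In water replicate 2 at 5 days lay close to the 1-day libraries, and the call was lost without replicate 1 of water at 5 days (log2 fold change -0.15, adjusted p = 0.293) or without replicate 1 (-0.46, 0.0597) or 2 (-0.36, 0.134) of water at 1 day. nas-36, on chromosome I from 7527224 to 7531715, did not pass in either treatment. Its level was 1.35 and 1.31 CPM in arsenite and 1.83 and 2.53 CPM in water at 5 days, against 1.72 and 1.61 CPM in arsenite and 1.57 and 1.64 CPM in water at 1 day, with log2 fold changes of 0.44 (95% interval -0.09 to 0.97) in water and -0.32 (-0.89 to 0.24) in arsenite.

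nas-39, the tolloid counterpart on chromosome X from 16456927 to 16471333, stood at 6.501 and 7.97 CPM in arsenite and 7.04 and 8.83 CPM in water at 5 days, against 9.09 and 9.68 CPM in arsenite and 9.05 and 8.07 CPM in water at 1 day. Its libraries overlapped in water, where it did not pass (log2 fold change -0.11, 95% interval -0.42 to 0.21). It was called lower in arsenite (-0.38, SE 0.15, adjusted p = 0.0355), and lost that call without replicate 1 of arsenite at 5 days (0.263) or without replicate 1 (0.0748) or 2 (0.166) of arsenite at 1 day. Its exons share 276 bases with F38E9.1 on the same strand, and reads there may be split between these genes.

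A run of 3 members on chromosome V from 11470925 to 11478007 changed in both directions with age. nas-20 and nas-21 lie on opposite strands 254 bases apart, and nas-22 follows 799 bases after nas-21. nas-20 rose in both treatments, as given above. nas-22 stood at 0.654 and 0.540 CPM in arsenite and 0.792 and 0.558 CPM in water at 5 days, against 1.44 and 1.13 CPM in arsenite and 1.90 and 2.09 CPM in water at 1 day. It fell by 1.56 (SE 0.31, adjusted p = 0.000182) in water and by 1.09 (SE 0.34, adjusted p = 0.00891) in arsenite on the log2 scale, the second losing its call without replicate 2 of arsenite at 5 days (0.0536) or replicate 1 at 1 day (0.0798). nas-21 was below 2 CPM throughout, with 0.940 and 0.9003 CPM in arsenite and 0.875 and 0.772 CPM in water at 5 days, against 1.83 and 1.43 CPM in arsenite and 1.02 and 1.23 CPM in water at 1 day. It was called lower in arsenite (-0.82, SE 0.30, adjusted p = 0.0237) and not in water (-0.45, adjusted p = 0.243). The call in arsenite was lost without replicate 1 (0.0671) or 2 (0.0760) of arsenite at 5 days or replicate 1 at 1 day (0.172).

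By domain architecture, members of each larger group moved both ways in water. In the ShK group (nas-6 to nas-15) 5 of 10 tested rose and 2 fell, with a median log2 fold change of 0.97, and 3 of the 5 (nas-6, nas-10 and nas-13) entered the test only through their 5-day level. In the EGF-like and CUB group (nas-16 to nas-30) 8 of 14 were tested, and 3 rose and 3 fell, with a median of -0.26. In the thrombospondin-repeat group under nas symbols 1 of 4 rose, nas-38, and 1 fell, nas-37. In arsenite, 2 of the 10 tested in the ShK group rose and 2 fell, with a median of 0.75. The EGF-like and CUB group had 3 rises and 4 falls in arsenite, and the thrombospondin-repeat group 1 of each. Over all genes tested, 30.1% were called higher and 30% lower in water, and 30.3% and 29.4% in arsenite. These groups were set with the data known and were not compared by a test.

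In arsenite, 8 of the 29 members rose at 5 days and 9 fell, where 30.3% of all genes tested were called higher and 29.4% lower. The share of members called, 58.6%, is again near that of all genes, 59.6%. DESeq2 made 5 of the lower calls, and 5 were also made when replicate 1 of arsenite was left out at either age. The age comparisons in water and in arsenite use different libraries, but they share a fit and its estimate of spread. An effect of library batch cannot be told apart from age in either, so they are not independent. In both, 14 members were called, 7 higher and 7 lower, which is 73.7% of the 19 called in water and 82.4% of the 17 called in arsenite. Over all genes these shares were 87.1% and 87.8%. Log2 fold changes had the same sign in both treatments for 27 of 29 members (93.1%) and for 90.4% of all genes. The exceptions were nas-33 and nas-36. The members nas-1, nas-6, nas-10 and nas-13 entered the test only through their 5-day level. Of these, nas-1 and nas-10 are among the 8 rises in arsenite, and nas-10 is among the 7 called higher in both. These counts and shares are therefore a description.

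2 further members crossed the threshold only when a library was left out. nas-8 was called higher without replicate 2 of water at 1 day (adjusted p = 0.0393 in water) or without replicate 1 of arsenite at 5 days (0.0472 in arsenite), and nas-14 without replicate 2 of arsenite at 1 day (0.0120 in arsenite).

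The calls made in arsenite but not in water were nas-1, nas-21 and nas-39, and those made in water but not in arsenite were nas-4, nas-6, nas-12, nas-13 and nas-32. None of these differences between treatments passed the test of the difference itself. nas-1 had 11 and 14 counts in arsenite and 4 and 18 in water at 5 days, against 4 and 2 counts in arsenite and 3 and 11 in water at 1 day. It entered the test only through its 5-day level. Its ratio in arsenite was 4.67 (95% counting interval 1.87 to 13.9, adjusted p = 0.0195), and the call was lost without replicate 2 of arsenite at 5 days (0.103) or at 1 day (0.137). In water the libraries overlapped (log2 fold change 0.74, 95% interval -0.64 to 2.12).

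The most abundant member at 1 day, nas-11, was not called with age in either treatment, and its 5-day libraries fell into 2 levels. The gene lies on chromosome X from 6713577 to 6716357. It stood at 86.0 and 55.6 CPM in arsenite and 83.7 and 54.5 CPM in water at 5 days, against 61.5 and 59.6 CPM in arsenite and 55.4 and 60.7 CPM in water at 1 day. The high values were library 24 of arsenite and library 23 of water, and the others lay among or just below the 1-day values. The log2 fold change was 0.25 (95% interval -0.58 to 1.08, adjusted p = 0.532) in water and 0.23 (-0.60 to 1.06, adjusted p = 0.564) in arsenite. Without libraries 25 and 26, a setting chosen after the data were seen, the log2 fold change was 0.53 in water and 0.50 in arsenite, and without libraries 23 and 24 the sign turned, to -0.09 in water and -0.13 in arsenite. Either setting leaves 1 library in each 5-day group, whose spread is then taken from the 1-day libraries, so no p-value is given here. An edgeR model that took neighbouring library numbers as sets, a choice made with earlier results known, called it at 0.22 (adjusted p = 0.00347) in water and 0.19 (adjusted p = 0.00875) in arsenite.

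Other members also differed between these library sets, in both directions. Libraries 23 and 24 did not overlap libraries 25 and 26 for 16 of the 29 members (55.2%) and for 45.1% of all genes tested. The corresponding sets at 1 day, 31 and 32 against 33 and 34, did not overlap for 5 members (17.2%) and for 33.9% of all genes. With 2 libraries against 2, many genes lie apart by ordering alone, so these shares are a description. The mean level in 23 and 24 over that in 25 and 26 was 1.54 for nas-11, 1.147 for nas-20, 0.593 for nas-15, 0.702 for nas-30, 0.722 for nas-38 and 0.391 for nas-27. For nas-9 and nas-3 it was 0.988 and 1.02. For nas-15, nas-30 and nas-38, all 4 libraries of 5 days were above all 4 of 1 day.

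**Figure D4:**
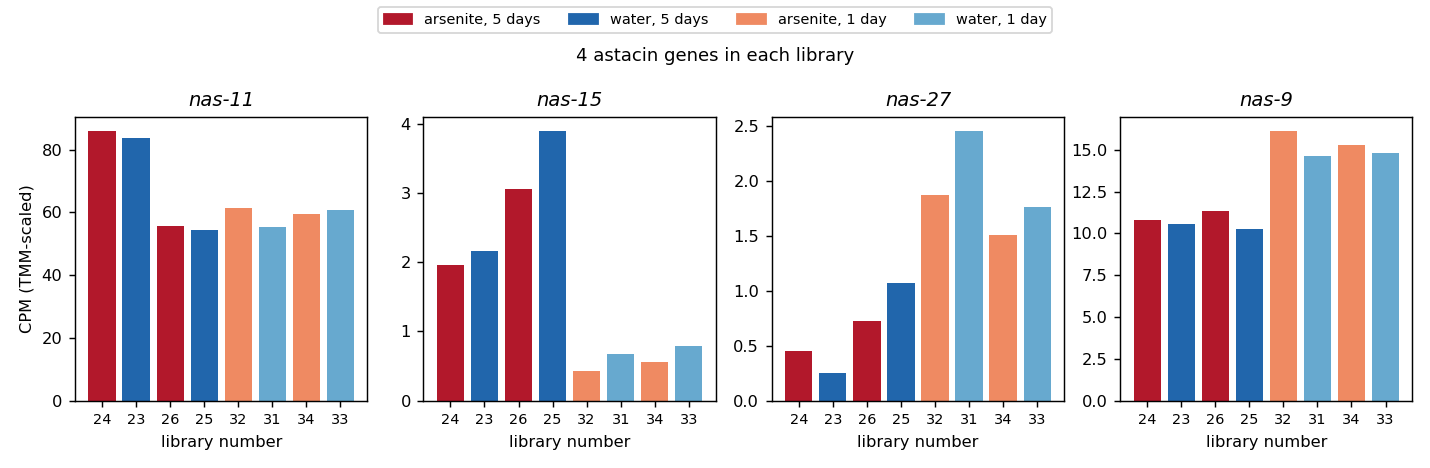
CPM (bars) of nas-11, nas-15, nas-27 and nas-9 in each of the 8 libraries, labelled by library number and coloured by group, on linear axes from 0. Libraries 24 and 23 are high for nas-11 and low for nas-15 and nas-27 relative to 26 and 25, while nas-9 is level across the 5-day libraries.

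The next comparison asked whether arsenite changed any astacin message at a given age. At 1 day none of the 29 members passed, where 0% of all genes tested were called, and 1 member had an unadjusted p under 0.05 (1.65% of all genes did). DESeq2 and limma voom called 0 members as well. The log2 fold changes of members ran from -1.23 for nas-1 to 1.71 for nas-10. Both extremes rest on few counts: nas-1 had 4 and 2 counts in arsenite, against 3 and 11 in water, and nas-10 had 1 and 3 counts in arsenite, against 1 and 0 in water. The 2 members of smallest p, neither passing, were nas-22 at -0.64 (SE 0.28, unadjusted p = 0.0301) and nas-29 at 0.82 (SE 0.44, unadjusted p = 0.0754), both with an adjusted p of 1. nas-22 was lower in both arsenite libraries, with 1.44 and 1.13 CPM, against 1.90 and 2.09 CPM in water. Both arsenite libraries lay below both water libraries for 4 of the 29 members at 1 day, and above them for 8.

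At 5 days no member passed either, where 0.0138% of all genes tested were called, and 1 member had an unadjusted p under 0.05 (3.97% of all genes did). DESeq2 and limma voom called 0 members. Members ran from -0.71 for nas-36 to 0.49 for nas-29. nas-36, which acts at the moult, had 33 and 29 counts in arsenite, against 44 and 59 in water, and both arsenite libraries were lower (log2 fold change -0.71, SE 0.27, unadjusted p = 0.0137, adjusted p = 0.999). nas-37 followed with 14.9 and 15.04 CPM in arsenite, against 14.1 and 20.9 CPM in water, where the groups overlapped (-0.22, SE 0.15, unadjusted p = 0.166). Both arsenite libraries lay below both water libraries for 4 of the 29 members at 5 days, and above them for 4. The intervals show how much change these data can bound. For the abundant nas-20 the 95% interval of the log2 fold change was -0.29 to 0.07 at 5 days and -0.19 to 0.18 at 1 day, whereas for the rare nas-6 it was -0.95 to 0.73 at 5 days and -0.99 to 1.24 at 1 day.

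The arsenite effect was then compared between 5 days and 1 day, which is also the test of whether the age difference depended on treatment. No member passed, where 0% of all genes tested were called, and 0 members had an unadjusted p under 0.05 (2.55% of all genes did). DESeq2 and limma voom called 0 members. nas-36 had the smallest p, with an effect of -0.71 at 5 days and 0.05 at 1 day and a difference of -0.76 (SE 0.37, unadjusted p = 0.0530, adjusted p = 1.00). nas-32 followed with a difference of -0.51 (SE 0.29, unadjusted p = 0.0935).

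**Figure D5:**
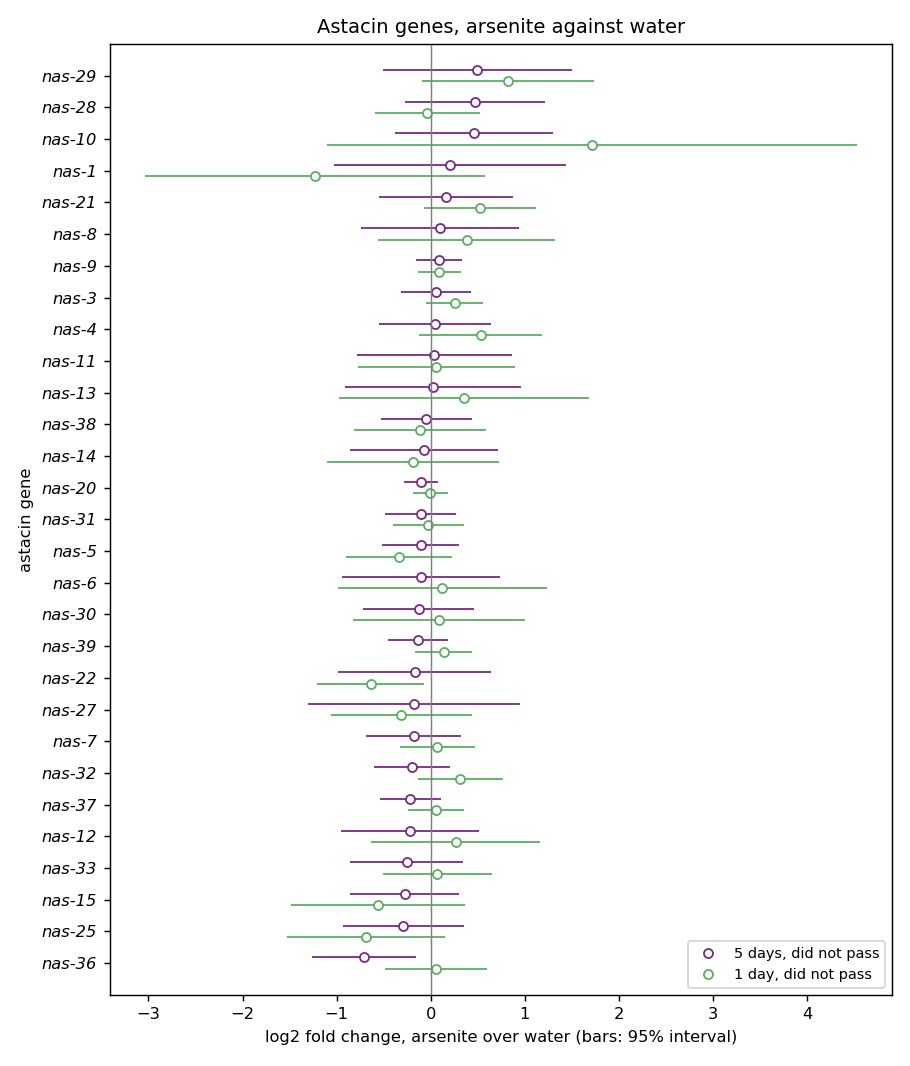
Log2 fold change of arsenite over water for the 29 tested astacin genes at 5 days (upper point of each pair) and at 1 day (lower point), ordered by the value at 5 days, with 95% intervals. No point is filled, because no gene passed the edgeR test, and the values at 5 days lie between -0.71 and 0.49.

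Family members under other names did not rise with age. The hatching protease hch-1 stood at 32.1 and 37.5 CPM in arsenite and 36.5 and 37.3 CPM in water at 5 days, against 67.7 and 66.3 CPM in arsenite and 67.3 and 63.5 CPM in water at 1 day. It fell by 0.82 (SE 0.08, adjusted p = 4.35e-09) in water and by 0.95 (SE 0.08, adjusted p = 4.26e-10) in arsenite on the log2 scale. The collagen-processing protease dpy-31 fell by 0.33 (SE 0.10, adjusted p = 0.00632) in water and by 0.29 (SE 0.10, adjusted p = 0.0165) in arsenite, while toh-1 stood at -0.02 (SE 0.12) in water and -0.03 (SE 0.12) in arsenite and did not pass. Embryo markers, which bear on a hatching enzyme, summed to 51.3 to 55.8 CPM in arsenite and 48.3 to 53.2 CPM in water at 5 days, against 74.1 to 75.1 CPM in arsenite and 71 to 73.8 CPM in water at 1 day. Of these 12 genes 8 fell and 3 rose in water, where 30.1% of all genes tested were called higher and 30% lower. The part of these markers in the fall of hch-1 was not tested.

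Genes of the moult and the cuticle were given for context. Of 18 moulting genes 11 fell and 4 rose in water, with a median log2 fold change of -0.68 (0.01 over all genes, of which 30.1% were called higher and 30% lower). Those of smallest p were noah-1 and noah-2, components of the apical matrix, at -1.66 (SE 0.08) and -1.52 (SE 0.09), and fbn-1, a fibrillin-like matrix protein, at -1.28 (SE 0.08). The 4 that rose in water were lin-42 (0.88), qua-1 (0.86), nekl-2 (0.86) and mlt-9 (0.53). In arsenite 11 of the 18 fell and 3 rose. Of 10 genes of collagen maturation 6 fell and 1 rose in each treatment, among them the prolyl 4-hydroxylase subunits phy-2 (-1.11, SE 0.09) and dpy-18 (-0.50, SE 0.07) and the peroxidase mlt-7 (-1.05, SE 0.11) in water. Hypodermis and cuticle markers summed to 63.0 to 75.9 CPM in arsenite and 70.3 to 95.2 CPM in water at 5 days, against 510 to 571 CPM in arsenite and 521 to 570 CPM in water at 1 day, and 4 of these 9 fell and 3 rose in water. The difference in the sum was almost all col-19, an adult cuticle collagen, which made up 20% to 31.5% of it at 5 days and 88.1% to 89.1% at 1 day. Without col-19 the sum was 43.2 to 58.8 CPM in arsenite and 48.7 to 76.2 CPM in water at 5 days, against 60.6 to 63.4 CPM in arsenite and 59.8 to 62 CPM in water at 1 day. The 3 that rose were rol-6 (3.40, SE 0.33), dpy-13 (2.34, SE 0.55) and lon-3 (1.22, SE 0.38). Their part in the changes of moulting astacins was not tested.

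Other extracellular metalloproteases are given beside the 30.1% of all genes called higher and 30% called lower in water, and the 30.3% and 29.4% in arsenite. Of 9 ADAM and ADAMTS genes 5 rose and 4 fell in water, with a median log2 fold change of 0.16. The genes of smallest p all fell. They were adt-2 at -1.88 (SE 0.09), gon-1, which shapes the gonad, at -1.20 (SE 0.09) and mig-17, which guides gonadal cells, at -1.49 (SE 0.19). The 5 that rose did so by less, with sup-17 at 0.16, adm-4 at 0.21, unc-71 at 0.30, adm-2 at 0.37 and adt-1 at 0.56. In arsenite 2 of the 9 rose and 4 fell. Of 5 tested matrix metalloproteases 3 fell in water and none rose, with zmp-3 at -1.09 (SE 0.14), zmp-4 at -0.32 (SE 0.12) and zmp-5 at -1.21 (SE 0.48), and 2 fell in arsenite. Of 17 tested neprilysin-like genes 9 fell and 2 rose in water, with nep-22 at -1.32 (SE 0.07), nep-17 at -1.27 (SE 0.07) and nep-4 at -1.96 (SE 0.26), and in arsenite 9 fell and 1 rose. Of the TIMP-type inhibitors, cri-2 rose (0.62, SE 0.17, adjusted p = 0.00329 in water) and timp-1 stood at 0.17 (SE 0.23) in water and did not pass. No gene of any of these lists passed in the arsenite comparisons.

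Levels of tissue marker genes also differed with age, which does not by itself show a change in cell numbers. At 5 days relative to 1 day in water, 8 of 9 intestine markers and 6 of 6 body wall muscle markers fell, while 4 of 8 neuronal markers rose and 1 fell. Sperm markers fell in 3 of 6 tested, and pharyngeal gland markers fell in 2 of 5 and rose in 1. Among all genes tested, 30.1% were called higher and 30% lower in water. Intestine markers summed to 1147 to 1304 CPM in arsenite and 1191 to 1350 CPM in water at 5 days, against 3551 to 3830 CPM in arsenite and 3662 to 3890 CPM in water at 1 day. Body wall muscle markers summed to 1369 to 1385 CPM in arsenite and 1412 to 1610 CPM in water at 5 days, against 4749 to 5059 CPM in arsenite and 4866 to 4934 CPM in water at 1 day. Neuronal markers summed to 456 to 491 CPM in arsenite and 492 to 514 CPM in water at 5 days, against 330 to 351 CPM in arsenite and 327 to 347 CPM in water at 1 day. Most of that gap was snb-1, synaptobrevin (log2 fold change 1.14, SE 0.06 in water), and without it the sum was 205 to 230 CPM in arsenite and 220 to 247 CPM in water at 5 days, against 211 to 222 CPM in arsenite and 209 to 219 CPM in water at 1 day. unc-104, a kinesin, fell (-0.61, SE 0.09 in water). Sperm markers summed to 3.78 to 5.19 CPM in arsenite and 3.95 to 5.63 CPM in water at 5 days, against 7.84 to 9.95 CPM in arsenite and 8.37 to 8.92 CPM in water at 1 day. Gland markers summed to 9.98 to 13.5 CPM in arsenite and 11.7 to 15.99 CPM in water at 5 days, against 18.5 to 20.7 CPM in arsenite and 19.1 to 22.01 CPM in water at 1 day. Without phat-3, which fell (-1.62, SE 0.16 in water), the gland sum was 6.501 to 9.18 CPM in arsenite and 8.04 to 12.3 CPM in water at 5 days, against 8.26 to 8.78 CPM in arsenite and 8.63 to 9.72 CPM in water at 1 day. No marker of these lists was at 0 in any group. The part of these tissues in the age changes of astacin genes was not tested.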

How the data were processed

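Whole-number read counts per WormBase gene were deposited for 8 libraries, and the authors applied no normalization to them. The build WBcel235, STAR 2.4.1d, featureCounts 1.4.6-p4 and CASAVA 1.7 are listed, per the submitters' processing notes, without settings. Annotation release, strandedness and the handling of multi-mapped reads were not found in the labels or headers. A second deposited table, of RPKM values by the authors, was not used.

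Symbols came from a gene name table, and nas-40 from the RefSeq gene at identical coordinates. Coordinates and exon lengths are from Ensembl's WBcel235 annotation. The test across genes used edgeR 4.0.16 under R 4.3.3: filterByExpr by group (minimum count 10, minimum total 15), TMM scaling, and a robust quasi-likelihood fit of 4 group means to all 8 libraries, which share 1 estimate of spread (common biological variation 4.44% within 1-day and 7.31% within 5-day libraries). Each standard error is the absolute log2 fold change over the square root of its F. Groups with 10 or fewer counts are given with exact counting intervals (95%, counting error only, as are Wilson intervals). The test was checked on simulated counts drawn independently for each library. That check does not cover differences between library sets or an effect of library batch. Alternatives were RLE scaling, no filter, DESeq2 1.42.0, limma voom 3.58.1, only the groups compared, neighbouring library numbers as a term, and each library left out.

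Named members are the 6 largest called rises and falls in water, 6 with known roles (nas-6, nas-7, nas-36, nas-37, nas-38 and nas-39) and the 2 of smallest p per arsenite comparison; nas-11, nas-20 and others given beyond these were chosen after their values were seen. Other lists show up to 3 genes of smallest p. Members and lists were chosen with earlier results of these data known. The symbols toh-2 and trp-3 were not matched.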

Additional observations from a re-analysis of the deposited data

How the results depend on the processing

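No paired analysis was possible because the labels give no replicate numbers and do not say that neighbouring library numbers pair libraries. A model that took those neighbours as sets was nonetheless run, and it gave 13 rises and 7 falls in water, 9 rises and 9 falls in arsenite and 0 calls in the arsenite comparisons, and nas-11 was the one member whose call it changed. Over 16 alternatives, 13 of the 19 calls in water and 11 of the 17 in arsenite were made every time. Both sets include nas-10, which entered the test only through its 5-day level, so its call is a description and not a sign of robustness. The counts of age calls given here include such members and are a description too. On leaving out a library, rises numbered 8 to 12 and falls 6 to 7 in water, and rises 7 to 9 and falls 5 to 9 in arsenite. DESeq2 gave 7 rises in water, against 12, and 5 falls in arsenite, against 9, and the cause was not tested. The arsenite comparisons gave 0 calls under each alternative run.

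Directions turned only among members that did not pass, and only on leaving out libraries. On leaving out 1 library, the log2 fold change in water ranged from -0.71 to 1.83 for nas-1, from -0.096 to 0.52 for nas-11, from -0.29 to 0.17 for nas-29, from -0.16 to 0.26 for nas-33 and from -0.28 to 0.045 for nas-39. In arsenite it ranged from -0.20 to 0.97 for nas-8, from -0.13 to 0.49 for nas-11, from -0.064 to 0.24 for nas-31 and from -0.64 to 0.23 for nas-33. For arsenite against water at 5 days nas-37 ranged from -0.49 to 0.085. Without libraries 25 and 26, a setting chosen after seeing the data, nas-1 stood at -0.71, nas-29 at 0.071 and nas-33 at -0.16 in water, nas-8 at -0.20 and nas-31 at -0.059 in arsenite, and nas-37 at 0.076 for arsenite against water at 5 days. Without libraries 23 and 24, nas-11 stood at -0.093 in water and -0.13 in arsenite, and nas-39 at 0.048 in water. Counting error limits the rarest members most, such as nas-10 with 0 to 3 counts per library at 1 day.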
